A study of Mus musculus with 6 samples.

Results

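The CD300 and TREM receptors are 2 families of immunoglobulin-like receptors on the surface of myeloid cells. Expression of 10 of their genes was read in monocytes sorted from tumor and from spleen. These were the CD300 genes Cd300a, Cd300e, Cd300lb, Cd300ld and Cd300lf and the TREM genes Trem1, Trem2, Trem3, Treml2 and Treml4. Members were taken by gene symbol from the platform annotation, out of 22180 genes with a symbol of their own. Each of the 10 had 1 probe set, and all 10 passed the filter on dim genes. The family was chosen with earlier results of the tumor and spleen comparison in view, so the levels and differences of its members are a description and carry no test.

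RNA of 6 samples was measured on Mouse Gene 2.0 ST arrays, 3 from spleen and 3 from tumor. Per the labels, every mouse had been given Th9 cells, a helper T cell type, and tissue was taken 10 days later, so no group without Th9 cells is among the arrays. Flow cytometry had sorted CD11b+CD11c-Ly6Chi cells, the surface profile of inflammatory monocytes, in both groups. The kind of tumor, the mouse strain (the strain field of the labels reads Th9), the age of the mice and the number of mice behind each sample are not stated in the labels. If samples of a group share animals, p-values measure only technical spread. The comparison asks how expression in such monocytes depends on whether they were taken from tumor or spleen. A level is a log2(intensity + 1) value, summarised by its mean ± SD over the 3 arrays of a group, and a difference is tumor minus spleen on that scale, given ± SE from the fit over all genes. The number of arrays limits the precision, and levels of different genes are not compared with each other, because probe sets differ in brightness.

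CD300 and TREM receptors set the threshold at which myeloid cells respond to lipids, dying cells and microbes. Inhibitory members such as CD300a and CD300lf carry tyrosine motifs in their cytoplasmic tails that recruit the phosphatases SHP-1, SHIP-1 and their relatives. Activating members have short tails and signal through the adaptor DAP12 (gene Tyrobp) or the Fc receptor gamma chain (gene Fcer1g), which pass the signal to the kinase Syk and on to the Card9, Bcl10 and Malt1 complex. The CD300 genes lie in a cluster on chromosome 11 and the TREM genes in a cluster on chromosome 17, per the RefSeq gene table for GRCm38.p6.

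The arrays numbered 3 stood apart in both groups. Their medians on that scale were 4.73 for spleen 3 and 4.76 for tumor 3, against 4.50 to 4.51 on the other 4 arrays. Among those 4 arrays each pair shared between 2449 and 3534 identical values of 41345 probe sets, the arrays numbered 3 shared 12 with each other, and no array numbered 3 shared any with the other 4. The labels do not say whether the arrays were normalized in 2 sets, and the differences between arrays of equal number are given beside the group values. The genes behind the sort were read as a check. Ly6c2, a gene of the Ly6C antigen, rose from 6.81 ± 0.58 in spleen to 8.29 ± 0.40 in tumor (limma adjusted p = 0.0185). Ly6c1, the other Ly6C gene, lay under the array median on all 6 arrays (3.65 ± 0.68 and 4.01 ± 0.40, limma adjusted p = 0.693). Itgam, which encodes CD11b, fell from 10.04 ± 0.15 to 9.19 ± 0.22 (limma adjusted p = 0.015). Itgax, which encodes the CD11c that the sort selected against, was read at 11.16 ± 0.12 in spleen and 10.31 ± 0.17 in tumor (limma adjusted p = 0.00986), above the 95th percentile of every array. Ccr2 was lower in tumor, at 6.86 ± 0.09 in spleen and 5.93 ± 0.15 in tumor (limma adjusted p = 0.00515). Csf1r was lower too, at 11.39 ± 0.13 and 10.82 ± 0.10 (limma adjusted p = 0.0428). Adgre1 was not called, at 10.46 ± 0.28 and 9.89 ± 0.25 (limma adjusted p = 0.121). Adgre1 was called lower with quantile normalization (adjusted p = 0.00503), median centring (0.0153), the replicate number as a block (0.00257), the set of arrays (numbers 3 against 1 and 2) as a block (0.00119) and the arrays numbered 1 and 2 alone (0.0162). The calls were lost without spleen 1 or 2 for Ly6c2 (adjusted p up to 0.0711), for Itgam without spleen 2 or either of tumor 1 and 2 (up to 0.0801), without tumor 1 for Itgax (0.0594) and without any array but tumor 3 for Csf1r (up to 0.173).

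The receptors differed in both directions. On the tumor arrays Treml2 and Trem1 stood 5.68-fold and 3.95-fold higher than on the spleen arrays, and Cd300lf 1.55-fold higher. Cd300lb stood 4.19-fold lower, and Cd300ld, Cd300a and Trem2 about 2-fold lower (2.13, 2.01 and 1.81). Cd300e, Trem3 and Treml4 differed by at most 1.40-fold. In the limma fit 3 members were called higher and 4 lower at an adjusted p under 0.05, while 5.73% of the 18458 genes tested were called higher and 4.85% lower, 10.6% in all. With the replicate number as a block these were 4 and 4 members, against 11.7% and 17.3% of all genes, 29.0% in all. The groups did not overlap for 9 of the 10 members, which held for 25.4% of the genes tested. The members' differences had a median of -0.01 and those of all genes tested one of -0.05. By family the median was -1.01 for the 5 CD300 genes and 0.48 for the 5 TREM genes. Nothing is read from these counts, because the family was chosen on this comparison.

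**Figure D1:**
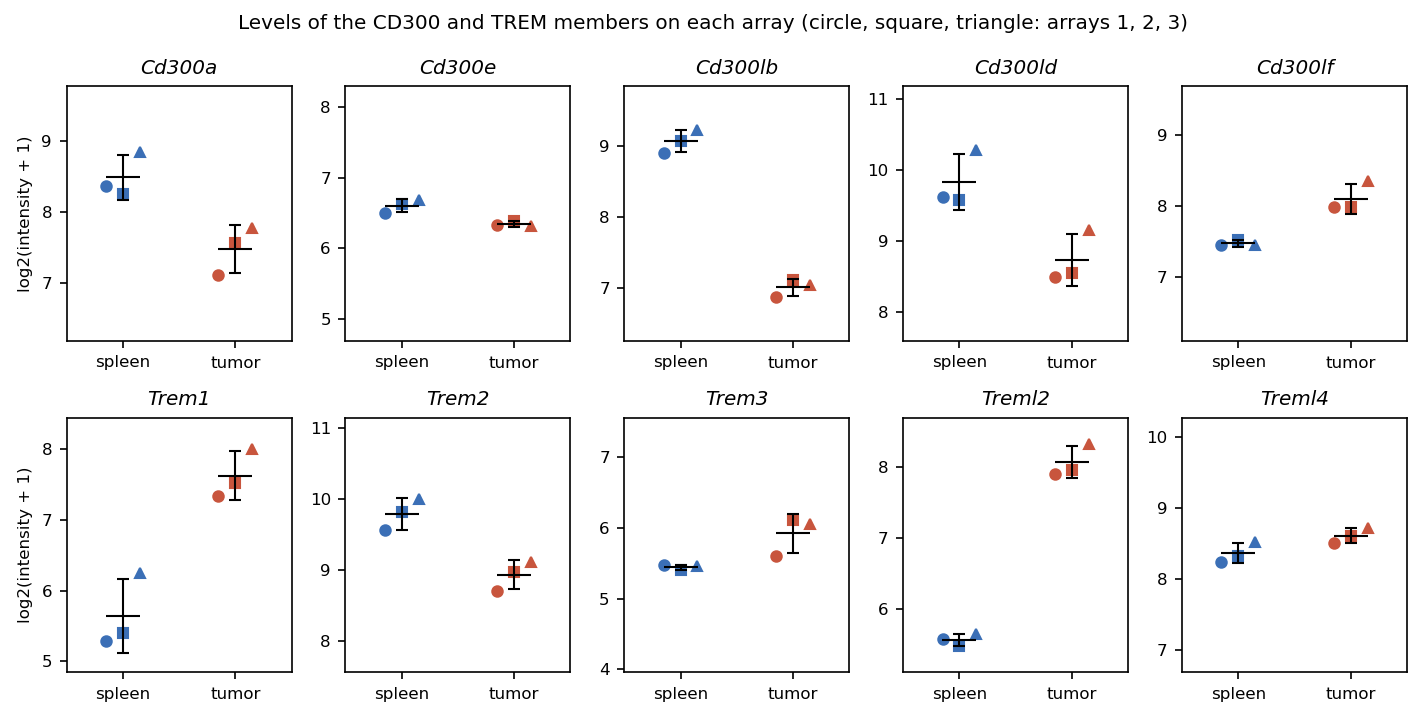
Level of each of the 10 genes on the 6 arrays, as log2(intensity + 1), with spleen in blue and tumor in red; circles, squares and triangles are the arrays numbered 1, 2 and 3, the horizontal bar is the mean and the vertical bar the SD (n = 3). Every panel spans the same range on its log2 axis, so distances can be compared between panels; the groups are farthest apart for Treml2 (2.51), Cd300lb (-2.07) and Trem1 (1.98) and overlap only for Treml4.

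Upstream sequence was set beside these directions, because 4 members with an entry were called lower and 2 higher. RefSeq promoter entries (GRCm38.p6) were held for 8 of the 10 members and not for Trem3 and Treml2. The 120 bases before the annotated start are printed 5′ to 3′ in the direction of the gene for the 6 called members, the first 4 lower and the last 2 higher in tumor. Capitals mark matches to any of 5 motifs searched on both strands: AGGAAG, the core bound by PU.1 and other ETS factors; TGANTCA for AP-1; TTCNNNGAA for STAT dimers; GAAANNGAA, a short form of the interferon-stimulated response element; and TATAAA.
Cd300lb: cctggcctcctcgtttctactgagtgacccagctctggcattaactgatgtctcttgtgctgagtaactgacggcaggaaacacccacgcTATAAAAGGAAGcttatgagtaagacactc
Cd300a: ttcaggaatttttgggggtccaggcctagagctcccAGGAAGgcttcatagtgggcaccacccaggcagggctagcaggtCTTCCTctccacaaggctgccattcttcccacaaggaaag
Cd300ld: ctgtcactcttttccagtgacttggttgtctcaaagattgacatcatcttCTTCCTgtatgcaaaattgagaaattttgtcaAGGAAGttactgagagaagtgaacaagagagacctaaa
Trem2: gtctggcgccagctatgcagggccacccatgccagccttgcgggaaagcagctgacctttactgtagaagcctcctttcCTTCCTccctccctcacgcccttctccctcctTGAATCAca
Cd300lf: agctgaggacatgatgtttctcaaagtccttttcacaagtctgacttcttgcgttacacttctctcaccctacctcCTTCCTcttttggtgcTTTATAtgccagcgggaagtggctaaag
Trem1: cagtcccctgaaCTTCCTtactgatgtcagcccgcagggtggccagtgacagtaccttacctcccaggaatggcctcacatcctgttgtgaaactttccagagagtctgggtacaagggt

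These stretches lie at chr11:114934372-114934491, minus strand (Cd300lb), chr11:114889921-114890040, plus strand (Cd300a), chr11:114989887-114990006, minus strand (Cd300ld), chr17:48346281-48346400, plus strand (Trem2), chr11:115133993-115134112, minus strand (Cd300lf) and chr17:48232619-48232738, plus strand (Trem1). AGGAAG was present in all 8 windows of members, the windows of Cd300e and Treml4 included, and in 16.3% of the 32851 windows of the same length in the table. Counting the base before the start as -1, it lay at -24 to -19 in Cd300lb, directly after TATAAA at -30 to -25, and at -108 to -103 in Trem1. Matches of different motifs did not overlap in these windows. TATAAA was found in Cd300lb and, on the opposite strand, in Cd300lf, against 6.34% of all windows. The AP-1 letters were found in Trem2 at -9 to -3, against 3.41% of all windows. No member window held the interferon-stimulated response element form (3.11% of all windows) or the STAT letters (3.15%). The same core thus stood upstream of members that were lower and of members that were higher. A match is a description of letters, and the motifs were chosen after the sequences had been seen.

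Among the CD300 receptors, Cd300lb showed the widest gap. It encodes an activating receptor (also called CLM-7 or LMIR5) that pairs with DAP12. Its level (probe set 17271710) was 8.91, 9.07 and 9.23 on spleen arrays 1, 2 and 3 and 6.86, 7.10 and 7.04 on tumor arrays 1, 2 and 3. All tumor values lay at least 1.81 below the lowest spleen value. The means were 9.07 ± 0.16 and 7.001 ± 0.12, a difference of -2.07 ± 0.15, and the differences between arrays of equal number were -2.04, -1.97 and -2.19.

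Cd300ld encodes an activating receptor (CLM-5 or LMIR4) that pairs with the Fc receptor gamma chain. On probe set 17271724 the levels were 9.61, 9.58 and 10.28 in spleen and 8.49, 8.55 and 9.16 in tumor. The array numbered 3 was the highest of each group, and the groups did not overlap. Differences between arrays of equal number were close to each other, at -1.12, -1.03 and -1.13, while the group difference was -1.09 ± 0.25. Leaving out any array but tumor 3 ended its call, with differences between -0.86 and -1.22. The gene has close neighbours. Of 300 promoter bases 228 align identically between Cd300ld and Cd300ld3, and 229 with Cd300ld4 and with Cd300ld5. The same alignment gave 189 for Cd300a and Treml4, which lie in different clusters. Promoter bases do not show probe binding, and whether the Cd300ld probes also bind the transcripts of such copies was not tested.

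Cd300a encodes an inhibitory receptor that binds the phosphatidylserine and phosphatidylethanolamine of dying cells. Probe set 17258107 read 8.36, 8.25 and 8.86 in spleen and 7.11, 7.57 and 7.77 in tumor. The tumor values were all lower, with a gap of 0.48 between the groups. The difference was -1.01 ± 0.23, with -1.26, -0.69 and -1.09 between arrays of equal number. Its call was lost without spleen 1, spleen 3, tumor 1 or tumor 2, where the difference lay between -0.82 and -1.07, and on the arrays numbered 1 and 2 alone (-0.97).

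Cd300lf encodes the other inhibitory member (CLM-1), which also recognises phosphatidylserine and ceramide, and it was the CD300 member that was higher in tumor. The arrays gave (probe set 17271776) 7.44, 7.52 and 7.44 in spleen and 7.98, 7.98 and 8.34 in tumor. Spleen values lay close together, and each tumor value was above them. The difference was 0.63 ± 0.16, with 0.53, 0.45 and 0.90 between arrays of equal number, so tumor 3 gave the highest. The call did not survive leaving out any of the 6 arrays, though the difference stayed between 0.51 and 0.69. A further 2 probe sets are annotated to Cd300lf together with other genes and were not used. The inhibitory genes Cd300a and Cd300lf thus differed in direction, while the activating genes Cd300lb and Cd300ld were both lower. Of these genes only Cd300lb kept its call whichever array was left out, and Cd300e, taken up next, was not called.

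Cd300e, whose human counterpart is an activating receptor of monocytes, differed little. Levels on probe set 17271769 were 6.50, 6.63 and 6.68 in spleen and 6.33, 6.39 and 6.31 in tumor. The groups stood 0.11 apart without overlapping. Its difference was -0.26 ± 0.14, and it was called under none of the alternatives.

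Among the TREM receptors, Treml2 had the largest difference. It encodes TLT-2, a receptor described on B cells, activated T cells, neutrophils and macrophages that does not use DAP12. Its level (probe set 17338388) was 5.58, 5.47 and 5.64 in spleen and 7.91, 7.97 and 8.33 in tumor. The lowest tumor value was 2.27 above the highest spleen value. The difference was 2.51 ± 0.16, with 2.33, 2.49 and 2.69 between arrays of equal number, and 2.19 with a pseudocount of 16, which shrinks changes of dim genes. Of 7 B cell markers, given because B cells express this receptor, 0 were called by limma, 0 had an unadjusted p under 0.05 and 0 were called with the replicate block, and their summed intensity ranged from 142 to 226 in spleen and from 133 to 214 in tumor. Among them Ms4a1 lay under the array median on all arrays. Of all genes tested 10.6% were called by limma in either direction, or 29.0% with the replicate block. The part of B cells in the Treml2 values was not tested.

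Trem1 encodes the DAP12-coupled receptor that amplifies inflammatory responses of neutrophils and monocytes. The probe set, 17338364, read 5.29, 5.40 and 6.24 in spleen and 7.34, 7.53 and 8.01 in tumor. Spleen 3 stood above the other spleen arrays, yet 1.10 below the lowest tumor array. The difference was 1.98 ± 0.28, with 2.05, 2.13 and 1.76 between arrays of equal number.

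Trem3, a DAP12-coupled receptor of the mouse that is a pseudogene in humans, lies next to Trem1. Levels (probe set 17338371) were 5.47, 5.40 and 5.45 in spleen and 5.61, 6.11 and 6.05 in tumor. Tumor 1 was close to the spleen arrays, and the other tumor arrays were higher. The difference was 0.48 ± 0.17, with 0.14, 0.71 and 0.60 between arrays of equal number, and it was called only with the replicate number or the set of arrays as a block. Neutrophils express Trem1 and Trem3, so their markers were read. Of 10 neutrophil markers limma called 0 higher and 1 lower (0 and 2 at an unadjusted p under 0.05, and 0 and 2 with the replicate block), and their summed intensity ranged from 2635 to 3388 in spleen and from 1943 to 2321 in tumor. Among them Camp lay under the array median on all 6 arrays. The called gene was Mmp8, from 10.93 ± 0.22 in spleen to 10.25 ± 0.12 in tumor (limma adjusted p = 0.034). It lost its call without any array but tumor 3 (up to 0.141). Mmp8 was bright and weighs most in the sums, and the other 9 markers were not called. Of all genes tested 5.73% were called higher and 4.85% lower, or 11.7% and 17.3% with the block.

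Trem2 encodes the DAP12-coupled receptor for lipids and lipoproteins that marks lipid-laden macrophages and microglia. Its level (probe set 17338416) was 9.56, 9.82 and 10.00 in spleen and 8.71, 8.98 and 9.12 in tumor. Each tumor array was lower than each spleen array. Differences between arrays of equal number were nearly the same, at -0.85, -0.84 and -0.88, and the group difference was -0.86 ± 0.18. Leaving out spleen 2, or tumor 1 or 2, ended its call (differences between -0.74 and -0.88). Of 9 macrophage markers 1 was called higher and 2 lower (2 and 3 with the replicate block), and their summed intensity ranged from 5094 to 6418 in spleen and from 4332 to 5960 in tumor. Among them Folr2 lay under the array median on all arrays. The called rise was that of Vcam1, which kept its call with any array left out, and the falls were those of C1qb and C1qc. C1qb lost its call without spleen 1 or 2 or tumor 1 (limma adjusted p up to 0.132), and C1qc without spleen 1 or 2 or tumor 2 (up to 0.0666). For all genes tested the shares were 5.73% and 4.85%, or 11.7% and 17.3% with the block. Fewer cells of a type and less RNA per cell cannot be told apart in such bulk samples.

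Treml4 encodes a DAP12-coupled receptor known from non-classical monocytes and splenic dendritic cells, where it supports signalling by Toll-like receptor 7. Probe set 17338378 gave 8.25, 8.33 and 8.52 in spleen and 8.50, 8.61 and 8.71 in tumor. It was the member whose groups overlapped, since spleen 3 lay above tumor 1. Between arrays of equal number tumor was higher in all 3 cases, by 0.26, 0.28 and 0.20, with a difference of 0.24 ± 0.15 that was called under none of the alternatives. Among 10 markers of non-classical monocytes limma called 4 lower and 0 higher (6 and 0 at an unadjusted p under 0.05, and 7 and 1 with the replicate block), with a summed intensity of 5305 to 7145 in spleen and 3466 to 4907 in tumor. The called genes were Spn, Pou2f2, Fabp4 and Eno3, of which Fabp4 lost its call without any array but tumor 3 (limma adjusted p up to 0.103). Among 9 dendritic cell markers limma called 2 higher and 0 lower (2 and 0 at an unadjusted p under 0.05, and 2 and 1 with the replicate block), with sums of 1342 to 1514 in spleen and 1583 to 1763 in tumor. These were Zbtb46, whose call was lost without spleen 1 or 2 or tumor 2 (limma adjusted p up to 0.0627), and Dpp4, whose call was lost without spleen 1 or 2 or tumor 1 or 3 (up to 0.12). Beside these counts, 5.73% of all genes tested were called higher and 4.85% lower, or 11.7% and 17.3% with the block. No such share is given for the unadjusted p. The part of other cell types in the member values was not tested.

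Other genes of both families, which are not members, were tested in the same fit. Their list too was chosen with earlier results of these data known. Among 7 such genes limma called 1 rise and 2 falls, or 1 and 3 with the replicate block. B430306N03Rik, listed in RefSeq with the synonym Treml6 and lying between Treml2 and Trem2, rose by 1.44 ± 0.22, from 8.28 ± 0.34 to 9.72 ± 0.28 (limma adjusted p = 0.004). Cd300c2, which encodes the DAP12-coupled receptor CLM-4 or MAIR-II, fell from 8.77 ± 0.08 to 7.70 ± 0.14, a difference of -1.07 ± 0.15 (limma adjusted p = 0.00226). Cd300c fell from 7.15 ± 0.41 to 5.995 ± 0.19, a difference of -1.16 ± 0.22 (limma adjusted p = 0.0125, and 0.069 without tumor 1). Cd300ld3 (-0.56 ± 0.26, limma adjusted p = 0.256) was not called, and its difference was -0.82 on the arrays numbered 1 and 2 but -0.03 on those numbered 3. Without tumor 3 it was called (-0.85, adjusted p = 0.0227). Cd300lg, a gene of blood vessel endothelium outside the cluster, stood at -0.56 ± 0.22 (limma adjusted p = 0.176, but 0.0305 with quantile normalization, 0.0342 with median centring, 0.00745 with the replicate block and 0.00513 with the set block). Treml1, a platelet receptor gene, stood at -0.15 ± 0.19 (limma adjusted p = 0.803). 9830107B12Rik, with the synonym Trem5, stood at -0.02 ± 0.18 (limma adjusted p = 0.981).

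In the order of the genes on chromosome 11, Cd300a, Cd300lb, Cd300c, Cd300ld and Cd300c2 followed each other with no other protein-coding gene between them. All 5 were called lower, against 4.85% of all genes tested. Nothing is read from this run, because Cd300a, Cd300lb and Cd300ld belong to the family chosen on this comparison. Cd300a, Cd300c and Cd300ld lost their calls without tumor 1. Next came Cd300ld4, Cd300ld2 and Cd300ld5, not analysed here, then Cd300ld3 and Cd300e, which were not called, and, past 1 further protein-coding gene, Cd300lf, which was higher. On chromosome 17 the order was 9830107B12Rik, which was not called, then past 1 further protein-coding gene Trem1, Trem3, Treml4, Treml2, B430306N03Rik, Trem2 and Treml1. The called rises of Trem1, Treml2 and B430306N03Rik were interrupted by the small differences of Trem3 and Treml4, and Trem2, next in line, was lower.

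**Figure D2:**
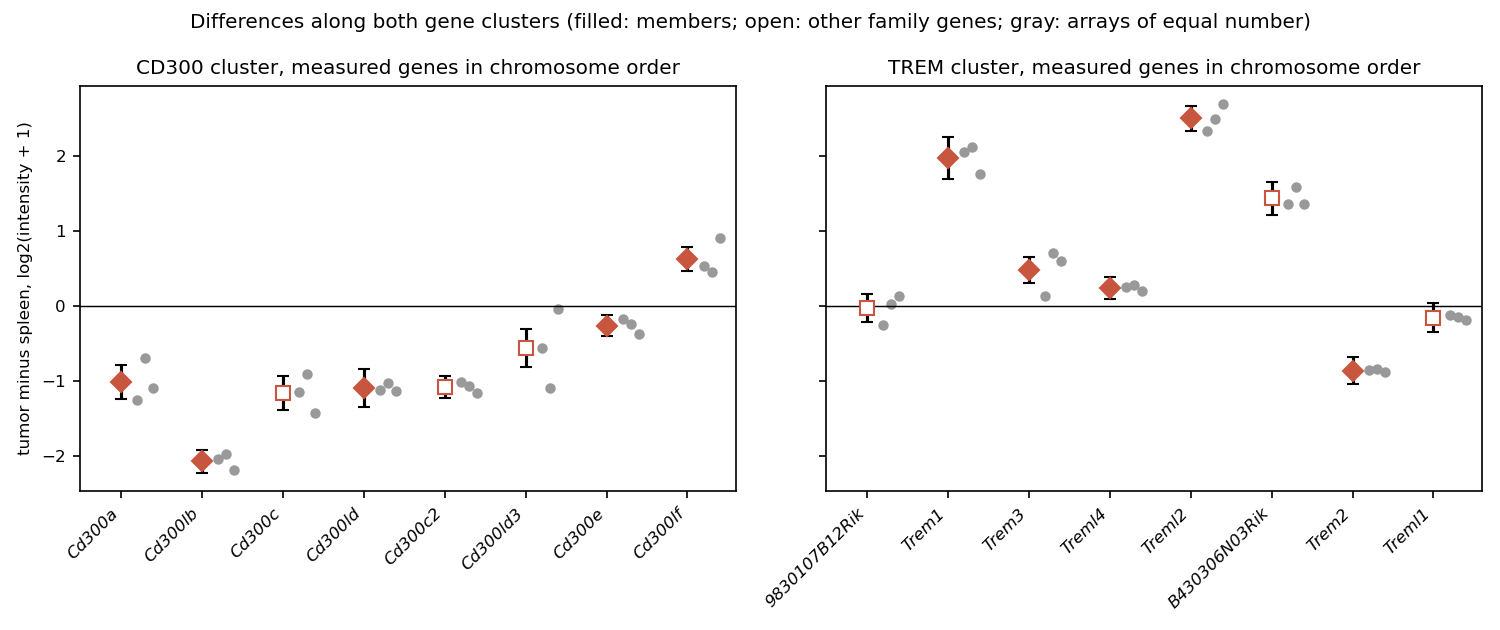
Difference of each measured CD300 and TREM cluster gene, tumor minus spleen on the log2(intensity + 1) scale, with genes in chromosome order and not to scale; diamonds are members, open squares other family genes, bars the SE of the fit, and gray points the differences between arrays numbered 1, 2 and 3 from left to right. The CD300 genes from Cd300a to Cd300c2 lie between -1.01 and -2.07, Cd300lf lies above 0 at 0.63, and the TREM cluster runs from 2.51 for Treml2 to -0.86 for Trem2.

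The signalling partners of the receptors were tested next, from 7 lists (the other family genes included) that hold 91 genes, of which 82 were tested. Together 5 were called higher and 9 lower, 12 and 30 with the replicate block, with a median difference of -0.19 against -0.05 for all genes tested. For all genes the shares called were 5.73% and 4.85%, or 11.7% and 17.3% with the block.

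Of 19 genes for activating adaptors and proximal kinases 1 rose and 2 fell, 4 and 5 with the replicate block. Malt1, the protease of the Card9 complex, rose by 1.21 ± 0.22, from 9.59 ± 0.28 to 10.81 ± 0.36 (limma adjusted p = 0.0101). Card9 itself, the adaptor that links Syk to Bcl10 and Malt1, fell from 8.67 ± 0.21 to 7.24 ± 0.20, a difference of -1.43 ± 0.17 (limma adjusted p = 0.00121). Genes of the same complex thus differed in direction. Lat2, an adaptor that is phosphorylated downstream of Syk, fell by 0.87 ± 0.20 (limma adjusted p = 0.0247), a call that ended on leaving out any array numbered 1 or 2 (highest adjusted p 0.106). The adaptors of the receptors, named after their values had been seen, were not called. Tyrobp, which encodes DAP12, was 11.18 ± 0.01 in spleen and 10.72 ± 0.20 in tumor (-0.47 ± 0.15, limma adjusted p = 0.101, but 0.0482 with a pseudocount of 16, 0.0144 with the replicate block and 0.014 with the set block). Fcer1g was 12.39 ± 0.01 and 12.35 ± 0.06 (-0.04 ± 0.13, limma adjusted p = 0.954), and Syk stood at -0.21 ± 0.16 (limma adjusted p = 0.599).

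Of 11 phosphatases and inhibitory adaptors limma called 0 higher and 3 lower, against 0 and 5 at an unadjusted p under 0.05 and 1 and 6 with the replicate block. Inpp5d, which encodes the lipid phosphatase SHIP-1, fell from 9.32 ± 0.18 to 8.27 ± 0.25, a difference of -1.05 ± 0.18 (limma adjusted p = 0.00714). Dok3, an adaptor that recruits SHIP-1, fell by 0.85 ± 0.18 (limma adjusted p = 0.0181), and Pag1, which anchors the inhibitory kinase Csk, by 0.83 ± 0.15 (limma adjusted p = 0.00917). Dok3 lost its call on leaving out spleen 2 or tumor 1 (highest adjusted p 0.0852) and on the arrays numbered 1 and 2 alone (adjusted p = 0.0581), and Pag1 without tumor 1 (adjusted p = 0.0568). Ptpn6, the SHP-1 gene, was chosen after its value had been seen and stood at 0.15 ± 0.18 (limma adjusted p = 0.793).

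Reported ligands and partners had 1 of 10 genes higher and 1 lower, 1 and 3 with the replicate block. Ms4a4a, whose human counterpart is tied to the amount of soluble TREM2, rose by 2.38 ± 0.21, from 8.04 ± 0.32 to 10.42 ± 0.27 (limma adjusted p = 2.2e-04). Plxna1, a receptor that associates with TREM2 and DAP12, fell by 0.71 ± 0.16 (limma adjusted p = 0.0222), but with the mean of its probe sets it stood at -0.33 (adjusted p = 0.733). Leaving out spleen 1 or 2, or tumor 1 or 2, ended the call as well (highest adjusted p 0.113). The ligand genes Apoe (-0.61 ± 0.22, limma adjusted p = 0.138) and Pglyrp1 (-0.09 ± 0.19, limma adjusted p = 0.906), of TREM2 and TREM1, were chosen after their values had been seen and were not called. Apoe was called lower with quantile normalization (adjusted p = 0.0171), median centring (0.0228), the replicate block (0.00281), the set block (0.00229) and the arrays numbered 1 and 2 alone (0.0461). Genes of sheddases, which cut TREM2 from the membrane, and of gamma-secretase were read as 1 list. It had 0 of 6 genes called by limma, against 0 higher and 2 lower at an unadjusted p under 0.05 and 0 and 4 with the replicate block. The smallest p-values were those of Psenen (-0.42 ± 0.14, limma adjusted p = 0.122) and Aph1b (-0.35 ± 0.15, limma adjusted p = 0.228). Psenen was called lower with quantile normalization (adjusted p = 0.0197), median centring (0.0344), a pseudocount of 16 (0.0498), the replicate block (0.0143), the set block (0.00778) and the arrays numbered 1 and 2 alone (0.0377). Aph1b was called lower with median centring (adjusted p = 0.0494), the replicate block (0.0214), the set block (0.0119) and the arrays numbered 1 and 2 alone (0.0497).

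Other paired receptors had 1 of 17 genes higher and 1 lower, 3 and 4 with the replicate block. Clec5a, a lectin receptor that also signals through DAP12, rose by 1.03 ± 0.16, from 9.04 ± 0.19 to 10.06 ± 0.14 (limma adjusted p = 0.00486). Clec4a2, an inhibitory lectin receptor gene, fell by 0.64 ± 0.15 (limma adjusted p = 0.033), a call lost with quantile normalization (adjusted p = 0.116), with median centring (0.0511) and without any array but spleen 3 (up to 0.155). In the list of genes that go with Trem2 in lipid-laden macrophages limma called 1 of 15 higher and 0 lower, against 2 and 5 at an unadjusted p under 0.05 and 2 and 7 with the replicate block. Cst7, which encodes the protease inhibitor cystatin F, rose by 1.20 ± 0.15 (limma adjusted p = 0.00133). That was opposite to Trem2 and also to the list itself, whose median difference was -0.28.

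**Figure D3:**
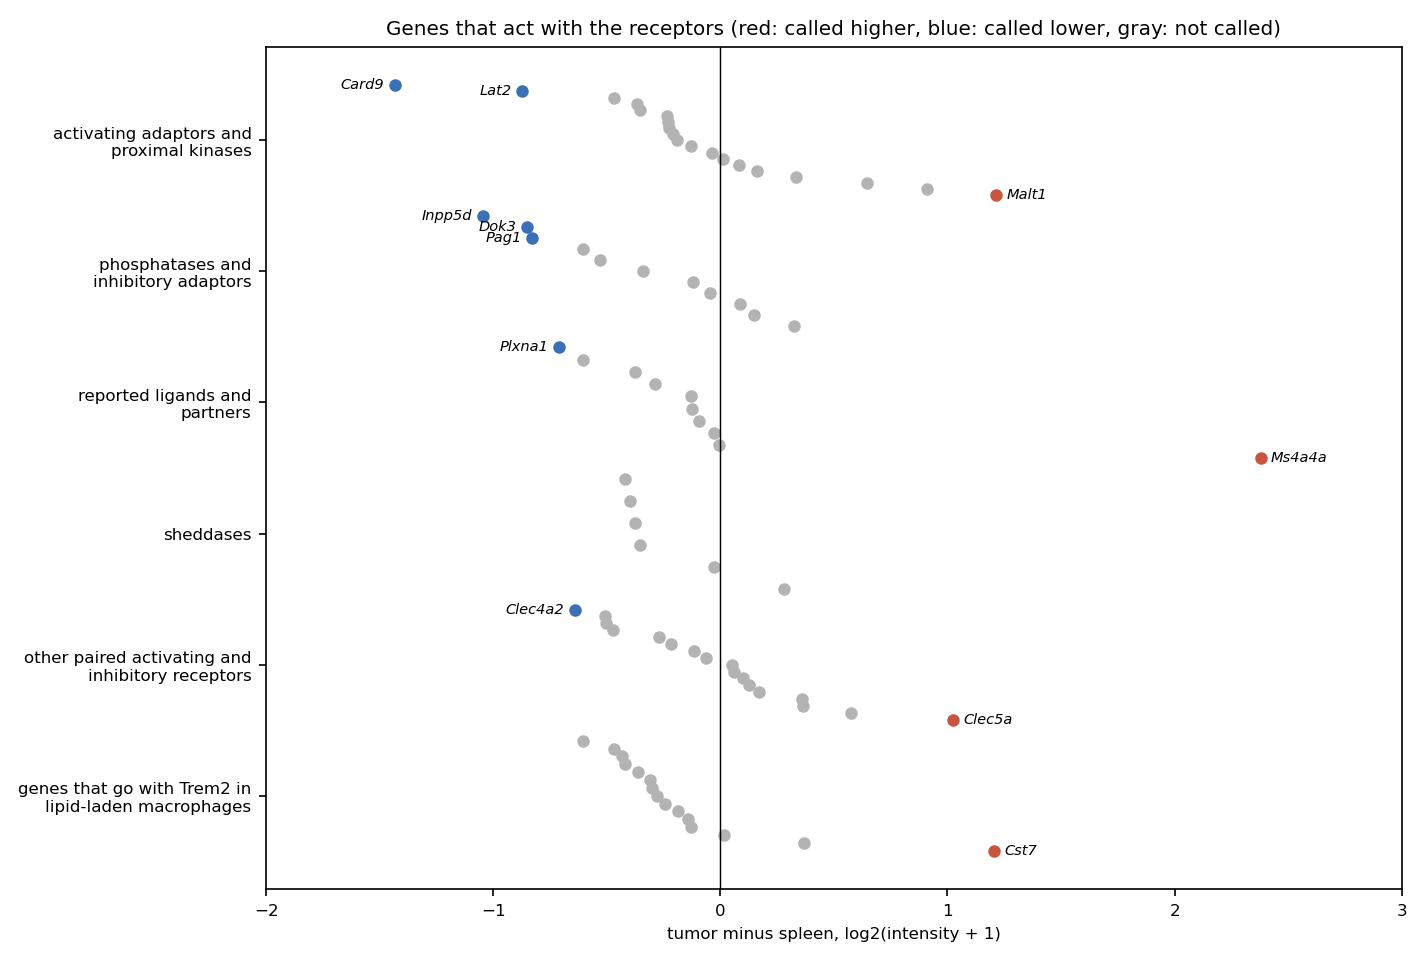
Difference of each tested partner gene, other family genes left out, tumor minus spleen on the log2(intensity + 1) scale, with a row of points for each list. Red and blue points were called higher and lower by limma at an adjusted p under 0.05 over all genes, and gray points were not called. Calls lie on both sides of 0, with Ms4a4a the highest at 2.38 and Card9 the lowest at -1.43.

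Platelet and red cell markers were read because Treml1 is a platelet gene. Of 6 tested limma called 0 higher and 1 lower, the same at an unadjusted p under 0.05 and with the replicate block, with sums of 655 to 882 in spleen and 311 to 334 in tumor. The called gene was Ppbp, from 9.13 ± 0.31 in spleen to 7.13 ± 0.23 in tumor (limma adjusted p = 4.4e-04). Ppbp was bright and weighs most in these sums, and the other 5 markers were not called. Of 8 T and NK cell markers limma called 0 higher and 1 lower, the same at an unadjusted p under 0.05 and with the block, with sums of 276 to 336 and 180 to 246. The called gene was Cd3g, from 6.70 ± 0.10 in spleen to 5.34 ± 0.30 in tumor (limma adjusted p = 0.00219), and the other 7 were not called. The shares of all genes tested were 5.73% higher and 4.85% lower, or 11.7% and 17.3% with the block. Markers of fibroblasts, endothelium and melanocytic or epithelial tumor were called in 0 of 12 cases by limma (1 higher and 1 lower at an unadjusted p under 0.05, and 1 and 1 with the block), with sums of 735 to 791 in spleen and 676 to 758 in tumor.

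**Figure D4:**
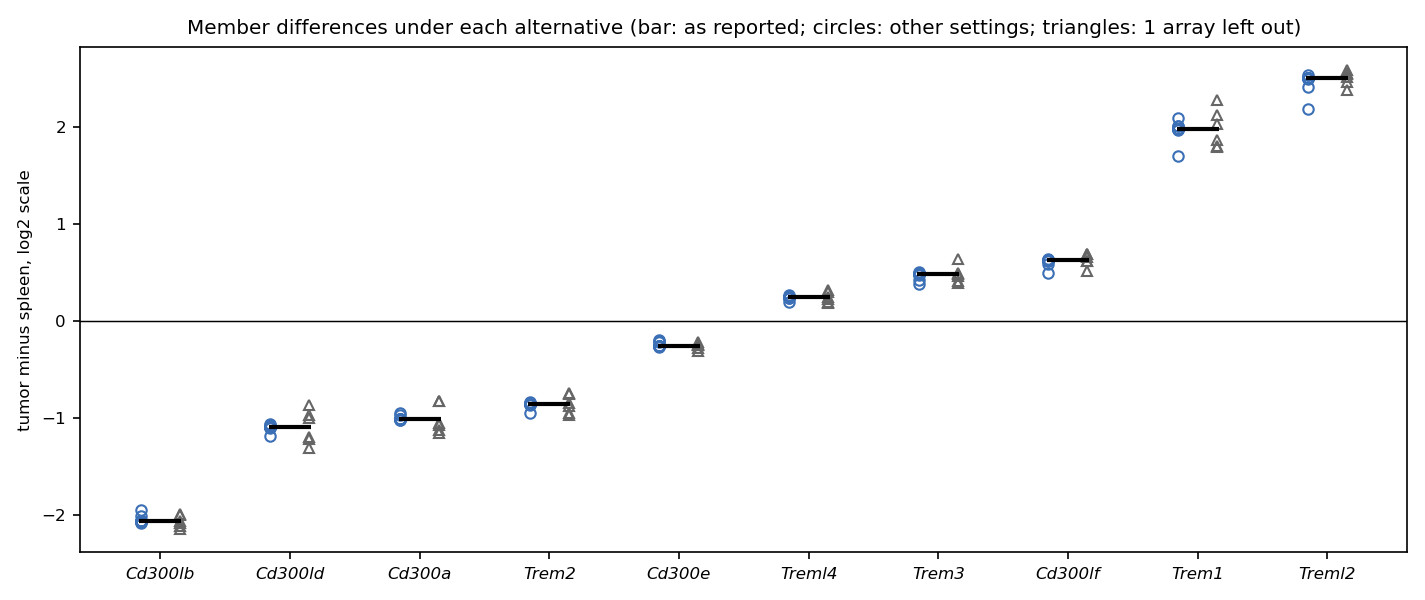
Difference of each of the 10 genes, tumor minus spleen on a log2 scale, as reported (black bar), under 12 other settings (circles) and with each of the 6 arrays left out (triangles). No gene crosses 0, and Treml2, Trem1 and Cd300lb stay farthest from it, with ranges of 2.19 to 2.59, 1.70 to 2.28 and -2.15 to -1.95.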

How the data were processed

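The values the authors deposited are linear intensity values, 1 for each probe set on each array, from RMA per the submitters' processing notes. Neither its version and settings nor the genome build was found in the labels. Genes were named from the platform annotation, using the 23521 of 41345 probe sets that carry 1 symbol (1814 carry several, 16010 are not listed) and, per gene, the probe set with the highest mean over the 6 arrays. Values were taken as log2(intensity + 1). Genes above the 25th percentile of their array on at least 3 arrays went into a two-sided limma fit of group alone (lmFit, then eBayes; limma 3.58.1, R 4.3.3), with Benjamini-Hochberg adjustment over all genes and a threshold of 0.05. An exact test of 3 against 3 arrays cannot go below 0.1. The script was tested on simulated data with independent noise on each array. No shift shared by the arrays numbered 3 was simulated, so the test does not show how the fit handles one.

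Members, lists and motifs were chosen with earlier results of these data known. Named genes were all members, other family genes and sort genes, and up to 3 called genes per direction of each other list, or the 2 of smallest p. The rule also names the 2 highest levels of each marker list. They are left out as such, since probe sets are not compared. Mmp8, Ppbp, Cd3g and the other called marker genes are named as the called genes of their lists, after their values had been seen. A summed intensity adds linear intensities, so bright probe sets weigh most in it. As a check of pairing, each array's deviations from its group mean were correlated across genes. Arrays of equal number gave 0.36, 0.44 and 0.71, so the number was also fitted as a block, although spleen 1 against tumor 2 (0.46) and spleen 2 against tumor 1 (0.35) gave like values. List names that are RefSeq synonyms were moved to the current symbol.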

Additional observations from a re-analysis of the deposited data

How the results depend on the processing

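All 10 members kept the sign of their difference under each alternative run. The replicate block changed the call of 1 member, Trem3. Called lower were 4 members in the reported fit, 1 at an adjusted p under 0.01, and 1 to 4 with an array left out. Called higher were 3, and 2 whichever array was left out. Fewer than 4 members were called lower without spleen 1, 2 or 3 or tumor 1 or 2. Of all genes tested 4.85% were called lower in the reported fit, 1.68% at an adjusted p under 0.01, and 1.59% to 5.61% with an array left out. The shares called higher were 5.73% in the reported fit and 3.59% to 6.72% with an array left out. Nothing is read from the member counts.

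For all genes the higher and lower counts were 1057 and 895. They were 2153 and 3193 with the replicate block, 651 and 310 at an adjusted p under 0.01, and, with the set of arrays as a block (numbers 3 against 1 and 2, chosen after seeing the data), 2181 and 3285. The lower count was 1921 with quantile normalization, 1806 with median centring and 1549 on the arrays numbered 1 and 2 alone (also chosen after seeing the data). With an array left out the counts ranged from 662 to 1240 and from 293 to 1036. For the genes of the 7 lists, other family genes included, 5 higher and 9 lower became 8 and 20 with quantile normalization and 8 and 17 with median centring. They became 12 and 30 with the replicate block, 12 and 31 with the set block, and 9 and 18 on the arrays numbered 1 and 2 alone. Of these lists 4 genes were lower at an adjusted p under 0.01, and 3 to 9 with an array left out. The cause was not tested. Each of these counts stayed within 1.5 times under the pseudocounts of 0 and 16, with no filter or one at the 50th percentile, with probe sets averaged per gene, and with a trended robust prior.

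No detection call was given with the intensities, so background could not be set apart from low expression.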
